A study of Homo sapiens with 6 samples.

Results

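The fatty acid elongation cycle was followed through 8 genes of SW620, an established human colorectal cancer line, of 19672 genes in the deposited count table. They were taken by symbol, all 8 were found, and all 8 were among the 13299 genes with enough counts to be tested. The members are the elongases ELOVL1, ELOVL5, ELOVL6 and ELOVL7, the ketoacyl reductase HSD17B12, the dehydratases HACD2 and HACD3, and the enoyl reductase TECR. The 6 libraries form 3 groups of 2. C6 and C3 are SW620 lines in which DKC1, the gene of the pseudouridine synthase dyskerin, was stably silenced by a lentiviral short hairpin RNA. Scramble cells are SW620 with a non-targeting hairpin. All cells were kept under puromycin and had no further treatment. The design names a pair of hairpins against DKC1 without saying which of them C6 or C3 carries. Each knockdown group is 1 line, so the effect of DKC1 and that of the hairpin or line cannot be told apart within it.

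Elongation takes place at the endoplasmic reticulum and lengthens a fatty acyl chain by a pair of carbons per turn. An elongase condenses the acyl chain with malonyl-CoA, HSD17B12 reduces the ketone, a HACD enzyme removes water and TECR reduces the remaining double bond. The elongase sets which chains are lengthened, while the other enzymes are shared by all of them. The longest products are used by ceramide synthases for sphingolipids. The series was titled for an effect of DKC1 on sphingolipid biosynthesis, the question that these genes bear on.

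DKC1 stood at 70.3 and 67.1 CPM in C6, 144 and 149 CPM in C3, and 320 and 315 CPM in scramble, where CPM is the read count scaled to a common library size. It was thus lower in all 4 knockdown libraries, and lower in C6 than in C3. Although 1 C3 library carries a genotype tag for control, its title names the knockdown, and its DKC1 level lay beside that of the other C3 library. Total counts per library lay between 26077966 and 31021000, at which 3 counts amount to 0.0968 to 0.114 CPM. Of 9 markers of colorectal epithelium 8 were tested, with CDX1 at 0 in all libraries. Their summed level was 8960 to 9060 CPM in C6, 6890 to 7080 in C3 and 8490 to 9140 in scramble. In each group most of that sum came from the keratins KRT8, KRT18 and KRT19. By single gene 2 of the 8 were called higher and 3 lower in C6, and 1 higher and 6 lower in C3. Over all genes tested 23.8% were called higher and 22.8% lower in C6, and 12.4% higher and 11.9% lower in C3. The log2 fold change was -0.30 in C6 and -1.96 in C3 for the cadherin CDH1, and -0.50 in C6 and -0.38 in C3 for EPCAM. It was -1.08 in C6 and 0.34 in C3 for VIL1, and 0.76 in C6 and -0.27 in C3 for KRT19. CDX2 was called higher in C6 (0.68), and KRT8, KRT18 and KRT20 were called lower in C3 (-0.37, -0.30 and -1.09). Markers of fibroblasts summed to 15.0 to 16.5 CPM in C6, 30.3 to 34.9 in C3 and 23.1 to 24.1 in scramble, and those of endothelium to at most 6.43 CPM in any library. Markers of immune cells summed to 35.5 to 42.6 CPM in C6, 12.7 to 13.3 in C3 and 18.4 to 19.4 in scramble, and the part of these markers and cells in the results was not tested. Of these lists PTPRC, CD3E, COL1A2, COL3A1, DCN and CDH5 were at 0 in all libraries, while others were detected. CD68, a macrophage marker, had 36.5 ± 4.91 CPM in C6, 10.7 ± 0.206 in C3 and 16.0 ± 1.13 in scramble, most of the immune sum in each group. It was called higher in C6 (log2 fold change 1.19) and lower in C3 (-0.58). LYZ, the other immune marker tested, was not called in C6 (-0.29) or in C3 (-0.48). LUM, a fibroblast marker, had 11.6 ± 0.293 CPM in C6, 24.4 ± 3.06 in C3 and 16.2 ± 0.789 in scramble (SD, n = 2), and was called lower in C6 (-0.48) and higher in C3 (0.59). The other fibroblast markers tested, COL1A1 and PDGFRB, were called lower in C6 (-0.97 and -0.73) and not called in C3 (-0.01 and 0.26). Less RNA of a gene per cell and fewer cells that carry it cannot be told apart in these bulk samples.

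The promoters of the member that rose most and of a pair of members that fell are shown first, since their levels are what the results turn on. Each run holds the 250 bases before the start of the gene on its own strand, from RefSeq on GRCh38.p14, at chr1:43368012-43368261 (minus strand) for ELOVL1, chr5:60844270-60844519 (minus strand) for ELOVL7 and chr15:65530213-65530462 (plus strand) for HACD3. Capitals mark matches on either strand to GGGCGG, the GC box bound by Sp1-type factors, and to CCAAT, the box bound by NF-Y.
ELOVL1: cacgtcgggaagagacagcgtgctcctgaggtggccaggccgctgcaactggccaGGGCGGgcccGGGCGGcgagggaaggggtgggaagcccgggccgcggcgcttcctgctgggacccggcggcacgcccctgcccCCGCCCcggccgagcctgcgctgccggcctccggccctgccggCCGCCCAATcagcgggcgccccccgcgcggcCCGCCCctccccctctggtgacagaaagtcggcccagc
ELOVL7: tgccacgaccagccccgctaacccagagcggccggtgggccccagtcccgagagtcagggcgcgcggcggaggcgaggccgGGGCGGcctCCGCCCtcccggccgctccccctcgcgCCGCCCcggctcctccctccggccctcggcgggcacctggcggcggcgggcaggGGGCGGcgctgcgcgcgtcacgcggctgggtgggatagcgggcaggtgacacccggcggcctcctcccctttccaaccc
HACD3: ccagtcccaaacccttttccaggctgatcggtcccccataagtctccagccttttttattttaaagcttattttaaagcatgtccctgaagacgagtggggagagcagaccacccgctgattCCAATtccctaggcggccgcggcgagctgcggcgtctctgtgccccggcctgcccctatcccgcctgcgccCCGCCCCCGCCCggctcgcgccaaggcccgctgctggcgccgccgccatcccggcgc
Searched on both strands, the ELOVL1 run holds 5 matches to GGGCGG and 1 to CCAAT, which overlaps a GC box. The ELOVL7 run holds 4 matches to GGGCGG and the HACD3 run 2, with 1 match to CCAAT there. Of the 7 members with a promoter in the table, 6 hold GGGCGG and 4 hold CCAAT, against 42.3% and 33.0% of 27305 promoters of the same length. For ELOVL6 and TECR, not shown, the window lies inside the gene span used below for neighbours. It is chr4:110198616-110198865 (minus strand) for ELOVL6 and chr19:14529344-14529593 (plus strand) for TECR. The sterol regulatory motif TCACNCCAC was found in 0 of the 7 and in 0.875% of all promoters. The E-box CACGTG was found in 1, that of ELOVL5, and in 6.49% of all. G and C made up 79.6% of the ELOVL1 run, 80.8% of the ELOVL7 run and 65.2% of the HACD3 run, with a median of 58.0% over all promoters. These matches describe the letters only.

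The members differed widely in level. Between genes, levels are compared as CPM per kilobase of transcript, using the mean length of the annotated transcripts of each gene. In scramble HSD17B12 was highest at 95.8 ± 2.33 CPM per kilobase (SD, n = 2), followed by ELOVL5 at 86.3 ± 2.65 and TECR at 83 ± 2.31. ELOVL5 and TECR overlapped in their libraries and have no order. HACD3 had 63.6 ± 0.319 CPM per kilobase in scramble, ELOVL1 42.8 ± 0.231 and HACD2 12.7 ± 0.0781. ELOVL6 and ELOVL7 were lowest, at 7.38 ± 0.225 and 2.94 ± 0.0742 CPM per kilobase. In C6 the order changed at ELOVL1 and TECR. ELOVL1 at 77.6 ± 0.301 CPM per kilobase in C6 stood above HACD3 at 49.2 ± 2.22 and just under ELOVL5 at 81.8 ± 3.53. TECR at 91.2 ± 3 CPM per kilobase in C6 stood above ELOVL5 and overlapped HSD17B12 in its libraries. In C3 ELOVL1 at 38.2 ± 1.18 CPM per kilobase stayed below HACD3 at 68.2 ± 1.47, as in scramble. TECR at 95.4 ± 4.19 CPM per kilobase was the highest member in C3, with both libraries above those of HSD17B12 at 87.6 ± 4.32. The transcripts of ELOVL5 range from 580 to 3081 bases, so its place in the order depends on the length taken.

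Other members of the same families were scarcely detected. ELOVL2, ELOVL4, HACD4 and TECRL had 0 counts in all 6 libraries, which allows a level of up to 0.114 CPM, the value of 3 counts in C6 replicate 1. ELOVL3 had at most 7 counts in a library. HACD1, a further dehydratase, was tested and had 3.15 and 1.83 CPM in C6, 2.03 and 2.95 CPM in C3, and 2.01 and 1.27 CPM in scramble. Its groups overlapped, and its log2 fold change in the mean of both lines was 0.60 with a 95% interval of -0.06 to 1.26 (adjusted p = 0.15). Every adjusted p here comes from edgeR, by its quasi-likelihood test and with Benjamini-Hochberg adjustment over all genes tested, unless DESeq2 is named.

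**Figure D1:**
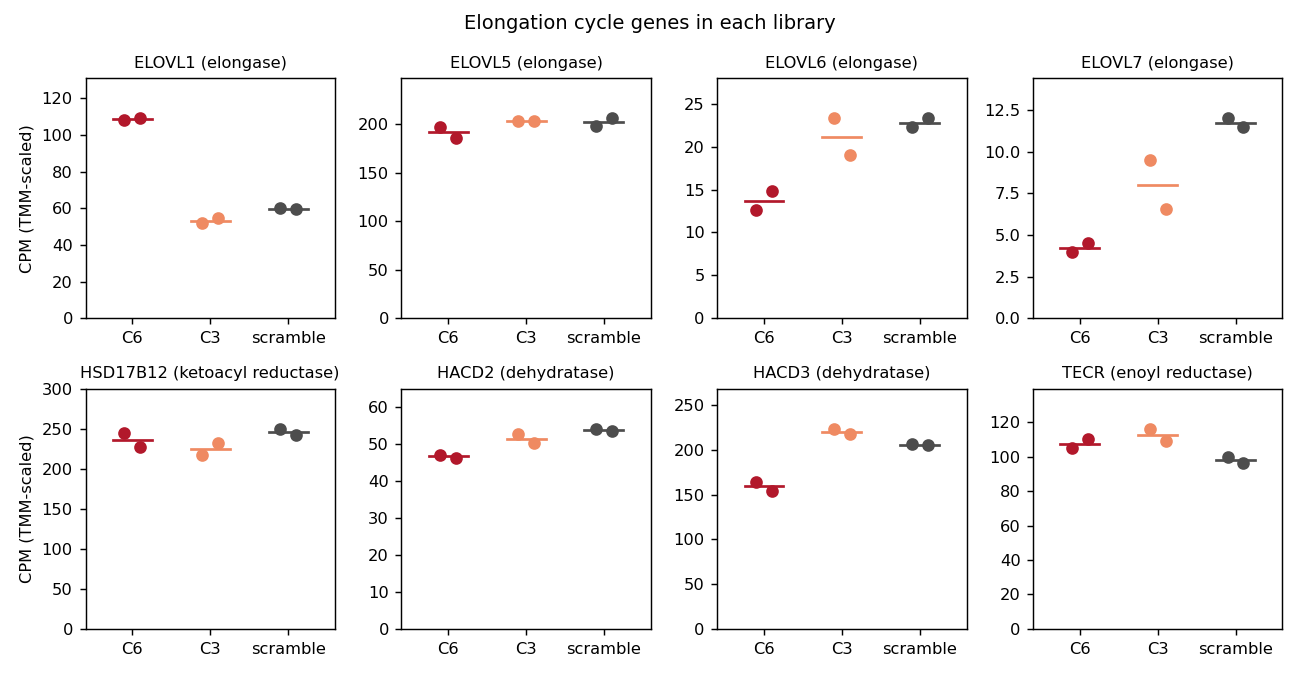
TMM-scaled CPM (vertical axis, from 0) of the 8 elongation cycle genes in each library of C6, C3 and scramble; points are libraries and lines the group means (n = 2 each). ELOVL1 stands at 108 and 109 CPM in C6, above all other libraries, while ELOVL6, ELOVL7 and HACD3 are lowest in C6.

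In C6 against scramble 1 member was higher and 4 were lower, where 46.7% of all genes tested were called, 23.8% higher and 22.8% lower. In C3 against scramble 1 member was higher and 1 lower, where 24.3% of all genes were called, 12.4% higher and 11.9% lower. In the mean of both lines 2 were higher and 2 lower, where 32.9% of all genes were called, 16.6% higher and 16.3% lower. The counts of members in C3 are thus close to the background. The 4 lower in C6 include HACD2, whose call was lost in 10 of 14 alternatives. No count of members was tested against its background. The median log2 fold change was -0.14 for the 8 members and -0.01 for all genes tested in C6, -0.08 for the members and 0 for all genes in C3, and -0.11 for the members and 0 for all genes in the mean. Upper-quartile scaling put 37.2% of all calls in the mean on the higher side, in place of 50.5%, and gave 1 member higher and 4 lower there.

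ELOVL1, which lengthens saturated and monounsaturated acyl-CoAs to the very long chains used by ceramide synthase CERS2, rose in C6. It had 108 and 109 CPM in C6, 52.1 and 54.5 CPM in C3, and 60.0 and 59.6 CPM in scramble. Both C6 libraries lay above every other library, and both C3 libraries lay below scramble. How many of all genes show this order was not counted, and 46.7% of them were called in C6 against scramble. The log2 fold change was 0.86 ± 0.07 (SE) in C6, or 1.81-fold (adjusted p = 8.6e-08 by edgeR). In C3 it was -0.17 ± 0.07 and not called (adjusted p = 0.091), though with upper-quartile scaling it was called at -0.20 (adjusted p = 0.045). C6 exceeded C3 by a log2 difference of 1.02 ± 0.07, or 2.03-fold (adjusted p = 9.8e-09 by edgeR). The mean of both lines, at 0.35 ± 0.06 (adjusted p = 0.00037), averages lines that lie on opposite sides of scramble.

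ELOVL7, an elongase of saturated long chains, had the lowest level and the largest relative fall among the 8 members. It had 3.99 and 4.49 CPM in C6, 9.49 and 6.55 CPM in C3, and 12.0 and 11.5 CPM in scramble. All 4 knockdown libraries lay below scramble, as for 15.2% of all genes tested, and the C3 libraries stood apart from each other. The log2 fold change was -1.47 ± 0.18 in C6 (adjusted p = 1.0e-05) and -0.55 ± 0.17 in C3 (adjusted p = 0.027 by edgeR). C6 lay below C3 by -0.92 ± 0.18 (adjusted p = 0.00071). ELOVL7 was the member called lower in both lines, beside 4.59% of all genes, and the lines share their controls. The call in C3 was lost without C3 replicate 2 (log2 fold change -0.31), without scramble replicate 1 (-0.52) or 2 (-0.57) and with DESeq2 (adjusted p = 0.13), and without C3 replicate 1 the value was -0.84.

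ELOVL6, which extends palmitoyl-CoA to stearoyl-CoA, fell in C6. It had 12.6 and 14.8 CPM in C6, 23.3 and 19.0 CPM in C3, and 22.3 and 23.3 CPM in scramble. The C6 libraries lay below all others, an order whose share over all genes was not counted, and the C3 libraries reached into the range of scramble. The log2 fold change was -0.74 ± 0.12 in C6 (adjusted p = 0.00015 by edgeR). In C3 it was -0.11 with a 95% interval of -0.35 to 0.14 (adjusted p = 0.57). C6 lay below C3 by -0.63 ± 0.12 (adjusted p = 5.0e-04 by edgeR). In the mean of both lines the value was -0.42 ± 0.10 (adjusted p = 0.0051), a call lost without scramble replicate 2 (adjusted p = 0.074).

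ELOVL5, which lengthens polyunsaturated chains, was the most abundant elongase and was not called in any of the 4 comparisons. It had 197 and 186 CPM in C6, 203 and 203 CPM in C3, and 198 and 206 CPM in scramble. Both C6 libraries lay below all others, the higher of them only narrowly, and the C3 libraries lay within the range of scramble. The 95% interval of its log2 fold change was -0.20 to 0.05 in C6 and -0.12 to 0.13 in C3.

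The make-up of elongase mRNA shifted towards ELOVL1 in C6. ELOVL1 made up 46.4% and 47.7% of the summed level of the 4 elongases, in CPM per kilobase, in C6, 27.9% and 29.2% in C3, and 31.2% and 30.2% in scramble. ELOVL5 made up 50.5% and 48.6% in C6, 64.7% and 65.0% in C3, and 61.3% and 62.4% in scramble. ELOVL6 and ELOVL7 together are the small remainder, with mean shares of 2.69% and 0.644% in C6, 5.12% and 1.5% in C3, and 5.30% and 2.11% in scramble. With 2 libraries a group no exact permutation test of a share can pass 0.05, and the shares are given as a description. Their size depends on the transcript lengths: without division by length ELOVL1 made up 34.1% in C6, 18.7% in C3 and 20.2% in scramble.

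**Figure D2:**
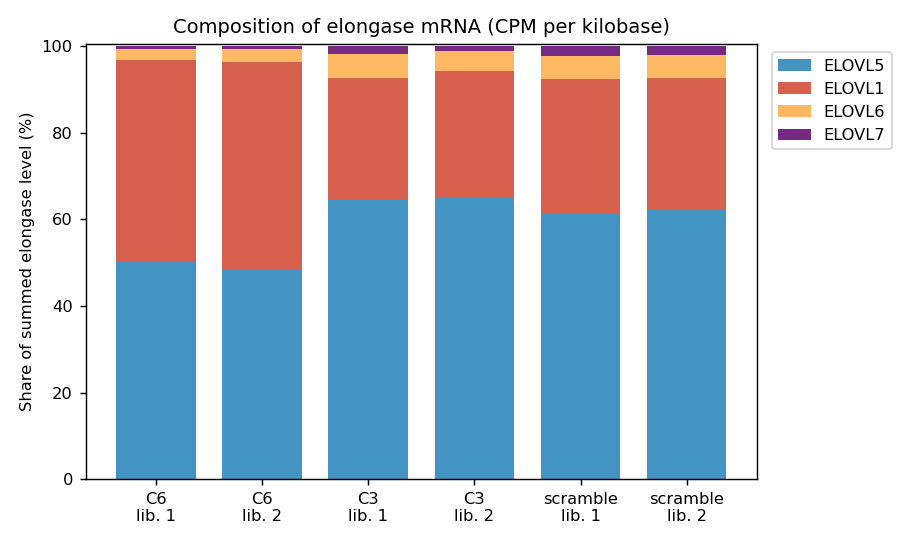
Share (%, vertical axis) of each elongase in the summed elongase level, in CPM per kilobase, in the 2 libraries of C6, C3 and scramble. ELOVL1 takes 46.4% and 47.7% in the C6 libraries and at most 31.2% in the others.

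Of the enzymes shared by all chain lengths, HSD17B12, the ketoacyl reductase that also acts on steroids, was not called in any of the 4 comparisons. It had 245 and 228 CPM in C6, 217 and 233 CPM in C3, and 250 and 242 CPM in scramble. The C6 libraries overlapped scramble and the C3 libraries lay below it. The 95% interval of its log2 fold change was -0.19 to 0.07 in C6 (adjusted p = 0.48) and -0.26 to 0.00 in C3 (adjusted p = 0.15).

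HACD3, the more abundant of the dehydratases, fell in C6. It had 164 and 154 CPM in C6, 223 and 217 CPM in C3, and 206 and 205 CPM in scramble. C6 lay below scramble and C3 above it, with no overlap between any of the groups. How many of all genes show such an order was not counted. Of all genes tested 46.7% were called in C6 against scramble and 49.2% in C6 against C3. The log2 fold change was -0.37 ± 0.06 in C6 (adjusted p = 0.00012) and 0.10 ± 0.06 in C3 (adjusted p = 0.24 by edgeR), the second of which did not pass the test. C6 lay below C3 by -0.47 ± 0.06 (adjusted p = 9.6e-06). In the mean of both lines HACD3 stood at -0.13 ± 0.05 and missed the threshold (adjusted p = 0.053), which it passed with upper-quartile scaling (-0.18, adjusted p = 0.013) and with 3 of the other alternatives.

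HACD2, the second dehydratase, had 47.2 and 46.2 CPM in C6, 52.8 and 50.3 CPM in C3, and 54.1 and 53.6 CPM in scramble. All 4 knockdown libraries lay below scramble, as for 15.2% of all genes tested. It fell slightly in C6, with a log2 fold change of -0.21 ± 0.07 (adjusted p = 0.030 by edgeR), and stood at -0.06 ± 0.07 in C3 (adjusted p = 0.58). The C6 call was lost in 10 of 14 alternatives, among them DESeq2 (adjusted p = 0.092), the removal of the shift shared with neighbouring genes, where the value was -0.07 (adjusted p = 0.49), and each of the 6 fits that left out 1 library, where adjusted p lay between 0.053 and 0.11. The ratio of HACD3 to HACD2, in CPM per kilobase, was 4.58 and 4.39 in C6, 5.58 and 5.68 in C3, and 5.02 and 5.03 in scramble.

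TECR, the enoyl reductase, which also acts in the breakdown of sphingosine 1-phosphate, had 105 and 110 CPM in C6, 116 and 109 CPM in C3, and 100 and 96.3 CPM in scramble. All 4 knockdown libraries lay above scramble, as for 15.0% of all genes tested. The log2 fold change was 0.14 ± 0.07 in C6 (adjusted p = 0.10), 0.20 ± 0.07 in C3 (adjusted p = 0.036 by edgeR) and 0.17 ± 0.06 in the mean (adjusted p = 0.034), and C6 and C3 did not differ past the threshold (-0.06, 95% interval -0.20 to 0.07). The call in the mean was lost in 9 of 14 alternatives, among them upper-quartile scaling (adjusted p = 0.12), DESeq2 (0.070) and the removal of the shift shared with neighbouring genes, where the value was 0.05 (adjusted p = 0.58). It was also lost without scramble replicate 1 or 2, C3 replicate 1 or C6 replicate 2, with adjusted p between 0.071 and 0.23. The call in C3 was lost in 8 of 14 alternatives: the replicate block (adjusted p = 0.066), upper-quartile scaling (0.084), DESeq2 (0.073), the removal of the neighbours' shift (0.10 on the log2 scale, adjusted p = 0.34) and each of the 4 fits without a C3 or scramble library (adjusted p from 0.072 to 0.28). TECR overlaps DNAJB1, a heat shock co-chaperone gene on the opposite strand, over 12686 bases. DNAJB1 changed by 0.64 ± 0.06 in C6 and 0.27 ± 0.06 in C3. The libraries were stranded per the submitters' protocols, but whether strand was used in counting is not given, so the part of these reads in the TECR count was not tested.

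**Figure D3:**
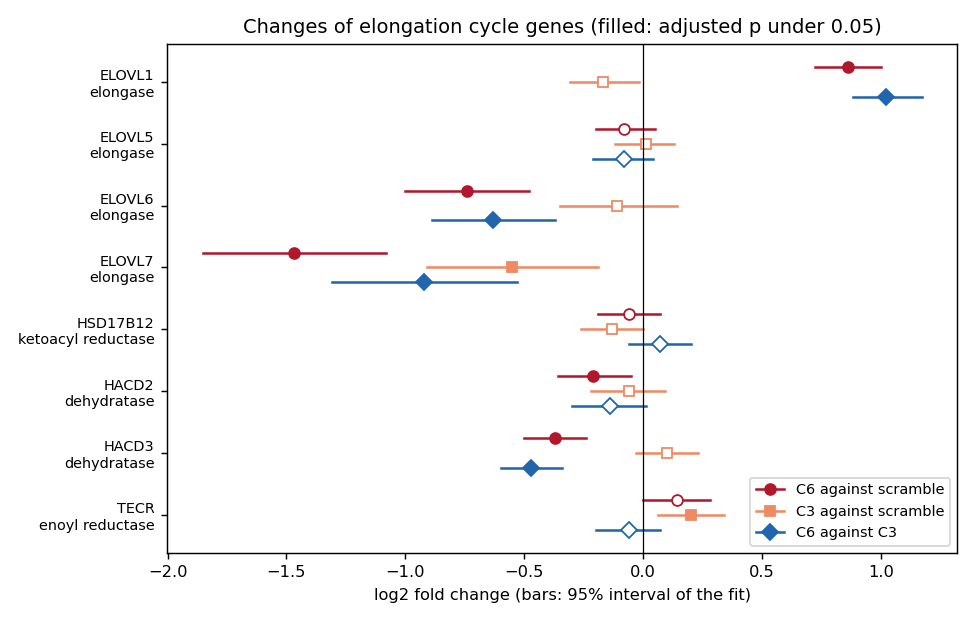
Log2 fold change (horizontal axis) with its 95% interval for each member in C6 against scramble, C3 against scramble and C6 against C3; filled symbols passed an adjusted p of 0.05. ELOVL1 lies at 0.86 in C6 and -0.17 in C3, and ELOVL6, ELOVL7 and HACD3 are lower in C6 than in C3.

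Set by step of the cycle, the summed level of the condensing elongases was 165 ± 2.63 CPM per kilobase in C6, 134 ± 0.125 in C3 and 139 ± 2.57 in scramble (SD, n = 2). The summed dehydratases stood at 60.2 ± 2.38 CPM per kilobase in C6, 80.3 ± 1.88 in C3 and 76.3 ± 0.397 in scramble. The C6 libraries thus held the highest elongase sums and the lowest dehydratase sums, with no overlap with scramble in either. The size of these differences depends on the transcript lengths, and the dehydratase sum holds HACD2 and HACD3 without HACD1. The elongase sum is mostly ELOVL1 and ELOVL5, while ELOVL6 and ELOVL7 fell in C6. For HSD17B12 and TECR, the only tested enzymes of their steps, the levels are those given above.

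The lines differed from each other in 4 members, ELOVL1 (higher in C6) and ELOVL6, ELOVL7 and HACD3 (lower in C6), where 49.2% of all genes were called, 25.1% higher and 24.1% lower in C6. A count of 4 of 8 is close to that background. These 4 genes kept their call in C6 against scramble and in C6 against C3 in each of the 14 alternatives run for each value. For ELOVL1 the log2 fold change in C6 against scramble ranged over them from 0.80 to 0.89, for ELOVL6 from -0.86 to -0.62, for ELOVL7 from -1.93 to -1.38 and for HACD3 from -0.43 to -0.28. When the 4 knockdown libraries were taken as 1 group, so that the difference between the lines counts as spread, no member, 0 of 8, passed (edgeR; 1 had an unadjusted p under 0.05), and 80 genes passed in all.

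Neighbouring genes can shift together between cell lines, so each member was set beside the 10 tested genes on each side of it. ELOVL7 (chromosome 5, 60751791 to 60844269) fell in C6 while its neighbours had a median log2 fold change of 0.48, with 16 of 20 higher and 2 lower. With the running median of neighbouring genes removed ELOVL7 stood further down in C6, at -1.93. ELOVL1 (chromosome 1, 43363401 to 43368011) rose in C6 beside neighbours with a median of -0.13, whose highest value of 0.42 lay below that of ELOVL1. ELOVL6 (chromosome 4, 110045846 to 110199202) and HACD3 (chromosome 15, 65530463 to 65578349) had neighbours with medians of -0.13 and -0.15 in C6, smaller falls than their own. HACD2 (chromosome 3, 123491554 to 123585053) had neighbours with a median of -0.12 in C6, and the running median there was -0.14, beside its own -0.21. Of the members not called in C6, ELOVL5 and HSD17B12 had neighbours with medians of -0.15 and -0.09. TECR (chromosome 19, 14527726 to 14565980) lay close to its neighbours, whose median was 0.09 in C6 and 0.14 in C3.

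**Figure D4:**
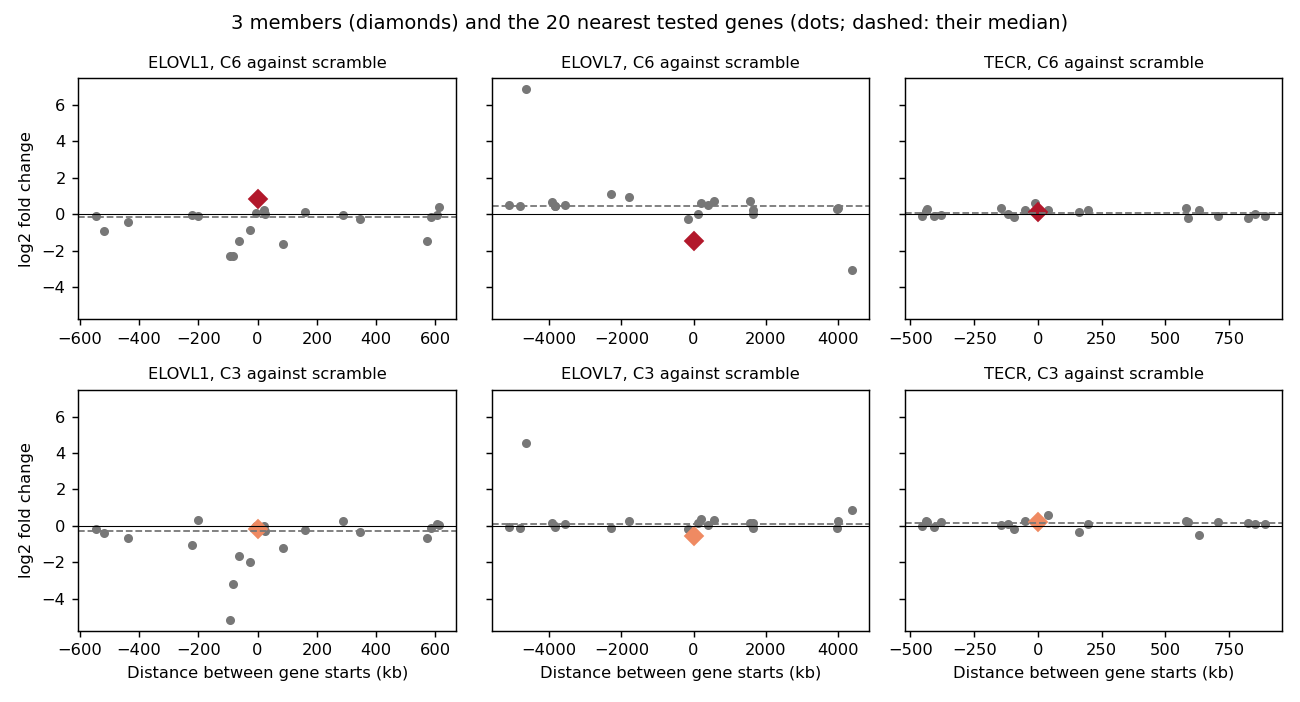
Log2 fold change (vertical axis) of ELOVL1, ELOVL7 and TECR (diamonds) and of the 20 nearest tested genes (dots, dashed line at their median) by distance between gene starts (kb), in C6 and C3 against scramble. ELOVL1 stands at 0.86 and ELOVL7 at -1.47 in C6, on the other side of 0 from their neighbours' medians of -0.13 and 0.48, and TECR lies beside its own.

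Genes that supply, modify and use the acyl chains were counted for context. Each count is to be read against the 23.8% of all genes tested that were called higher and 22.8% called lower in C6, and the 12.4% higher and 11.9% lower in C3. Of 8 genes of malonyl-CoA and palmitate supply, 2 were higher and 5 lower in C6, and 3 higher and none, 0, lower in C3 (2 lower at an unadjusted p under 0.05). FASN, which makes the palmitate that ELOVL6 extends, fell by 0.92 on the log2 scale in C6 and stood at -0.20 in C3, where it was not called. MLYCD, which breaks down malonyl-CoA, changed by -0.70 in C6. ACSS2 and SLC25A1, which feed acetyl-CoA and citrate to the pathway, rose in both lines, by 0.55 and 0.73 in C6 and by 1.45 and 0.61 in C3. Among 8 desaturation genes 2 were higher and 3 lower in C6, and 1 higher and 2 lower in C3. FADS2, the desaturase that precedes ELOVL5 on the polyunsaturated route, had 7.93 ± 1.76 CPM in C6, 16.3 ± 0.511 in C3 and 20.3 ± 1.30 in scramble (SD, n = 2), a change of -1.36 in C6 and, not called, -0.32 in C3. FADS1, which acts after ELOVL5 on that route, was not called, at -0.15 in C6 and -0.07 in C3. SCD, which desaturates stearoyl-CoA, changed by -0.53 in C6 and -0.55 in C3. CYB5R3, the reductase that supplies electrons to desaturases, rose by 0.42 in C6.

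Ceramide synthases take up the elongated chains. Of 5 tested 1 was higher and 2 lower in C6, and in C3 none, 0, was called by edgeR (1 at an unadjusted p under 0.05). Over all genes tested 46.7% were called in C6 and 24.3% in C3. CERS2, which takes the very long chains made by ELOVL1, had 230 ± 1.24 CPM in C6, 213 ± 2.39 in C3 and 193 ± 1.37 in scramble, a rise of 0.26 ± 0.06 in C6 (adjusted p = 0.0015) and a value of 0.14 ± 0.06 in C3 (adjusted p = 0.076 by edgeR). CERS6, which prefers palmitoyl-CoA, had 110 ± 1.24 CPM in C6, 168 ± 6.89 in C3 and 169 ± 8.83 in scramble, a change of -0.62 in C6 and of -0.02, not called, in C3. CERS4 changed by -0.98 in C6. CERS5 was called in neither line against scramble.

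Peroxisomes shorten very long chains. Of 10 tested genes of that route 6 were higher and 2 lower in C6, and 3 higher and 2 lower in C3, where 23.8% of all genes were called higher and 22.8% lower in C6, and 12.4% higher and 11.9% lower in C3. The median log2 fold change of these 10 was 0.31 in C6 and 0.04 in C3, beside -0.01 and 0 for all genes. The thioesterase ACOT8, the transporter ABCD3 and the thiolase ACAA1 rose in both lines, by 0.85, 0.35 and 0.32 in C6 and by 0.81, 0.45 and 0.33 in C3. EHHADH, a bifunctional enzyme of peroxisomes, changed by -1.43 in C6, to a low level of 2.08 ± 0.708 CPM. Of 10 tested genes that activate or bind acyl chains, 4 were higher and 3 lower in C6, and 2 higher and 4 lower in C3. ACSL3 fell in both lines, by 0.96 in C6 and 0.23 in C3, SLC27A5 rose by 0.55 in C6 and 0.65 in C3, ACSL4 was lower in C3 (-0.31) and SLC27A2 in C6 (-0.48).

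Of 14 regulators of lipid synthesis genes 5 were higher and 4 lower in C6, and none, 0, was higher and 5 were lower in C3 (0 higher at an unadjusted p under 0.05 too). Over all genes 23.8% were higher and 22.8% lower in C6, and 12.4% higher and 11.9% lower in C3. SREBF1, whose product drives fatty acid synthesis genes including ELOVL6 in mouse liver, had 97.9 ± 2.58 CPM in C6, 96.1 ± 4.88 in C3 and 118 ± 3.57 in scramble, a change of -0.27 in C6 and -0.30 in C3. SREBF2 changed by -0.71 in C6 and -0.44 in C3, and INSIG1, a target of its product, by -0.84 in C6 and -0.74 in C3. NR1H2, a liver X receptor, rose by 0.39 in C6. MLXIPL and PPARG were called higher in C6 (0.57 and 0.49) and lower in C3 (-0.64 and -0.30). INSIG2 and PPARD were called higher in C6 (0.48 and 0.31) and SCAP lower (-0.26), with none of them called in C3.

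**Figure D5:**
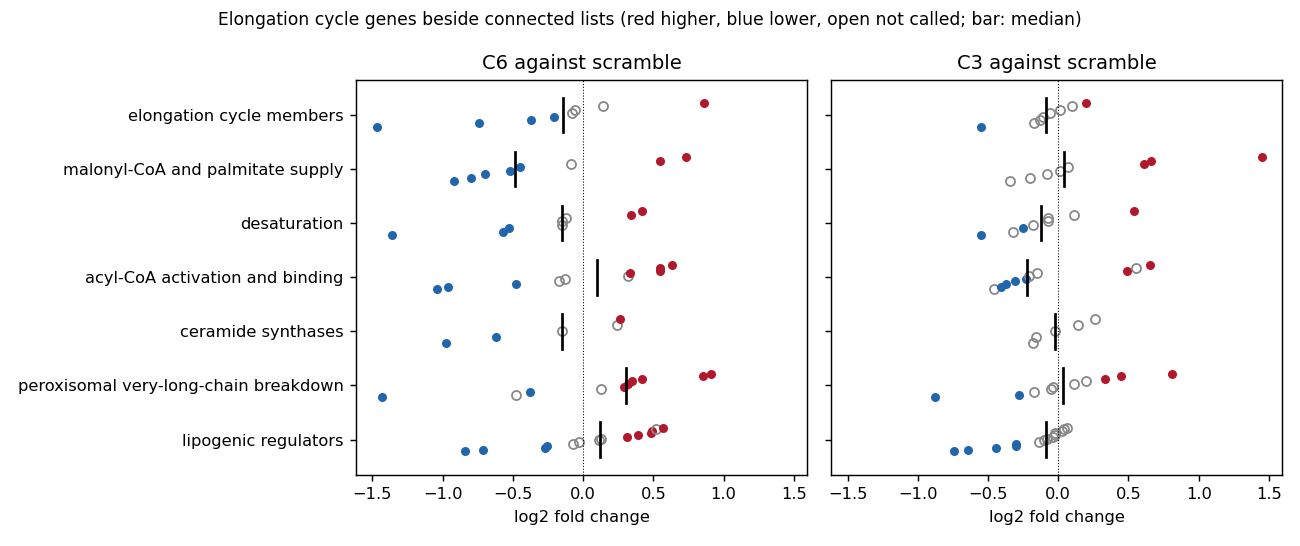
Log2 fold change (horizontal axis) of each tested gene of the elongation cycle and of 6 connected lists in C6 and C3 against scramble; red is higher, blue lower, open not called, and bars mark list medians. The elongation cycle spans -1.47 to 0.86 in C6, with a median of -0.14.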

How the data were processed

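Messenger RNA of 6 SW620 libraries was measured by stranded paired-end sequencing, per the labels' protocols. The deposited table holds read counts per gene as whole numbers, per the file headers, and the totals differ between libraries as unscaled counts do. The submitters' processing notes name Trimmomatic 0.38, HISAT2 2.1.0, StringTie 2.1.3b, DESeq2 and build hg38. The sources used here do not give their order or how reads of overlapping genes and opposite strands were assigned. StringTie estimates abundance, so the counts may be rounded estimates. Libraries were grouped by title.

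Genes were tested with edgeR 4.0.16 in R 4.3.3 (glmQLFit, robust, TMM scaling, filterByExpr), which kept 13299 genes and fitted 3 groups with 3 residual degrees of freedom. Benjamini-Hochberg adjustment ran over all genes kept, with a threshold of 0.05. Contrasts were the mean of C3 and C6, C3 and C6, each against scramble, and C6 against C3. Intervals are 95% intervals from the standard error of the fit. The titles call libraries of a group biological replicates without naming separate cultures, so p-values measure the spread between these libraries. Replicates differed by more than counting noise (chi-square per degree of freedom of 5.97 to 8.07). Counting floors cover counting error only.

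CPM were computed with TMM library sizes, and CPM per kilobase with the mean length of GENCODE 29 transcripts matched to the accessions in the table. Positions came from RefSeq on GRCh38.p14 for 19442 genes. The positional alternative entered the running median of 51 neighbouring genes as an offset. The members and lists were chosen with earlier results of these data known. All 8 members and DKC1 are named. From each other list up to 4 genes are named, those of smallest p when the mean of both lines was set against scramble. That choice favours genes that moved alike in both lines. For epithelial markers and lipid regulators, the other genes called in C6 or C3 against scramble are named too. For fibroblast and immune markers, all genes tested are named. DESeq2 1.42.0 was an alternative. The fit was also run on simulated counts with known fold changes, whose outcome is not given here.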

Additional observations from a re-analysis of the deposited data

Results flagged for a closer look

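The effect in C6 differed from that in C3 for 4 of the 8 members, by edgeR's test of C6 against C3. ELOVL1 was higher in C6 than in C3, with a log2 difference of 1.02. ELOVL6, ELOVL7 and HACD3 were lower in C6 than in C3, with log2 differences of -0.63 for ELOVL6, -0.92 for ELOVL7 and -0.47 for HACD3. For ELOVL1 and HACD3 both C6 libraries lay on the other side of scramble from both C3 libraries. Neither gene was called in C3 against scramble, at -0.17 for ELOVL1 and 0.10 for HACD3 (edgeR adjusted p = 0.091 and 0.24). The share of all genes with this order of libraries was not counted. As 49.2% of all genes tested were called in C6 against C3, a difference between these lines is common. Each line is 1 hairpin-carrying population, and the level of DKC1 (70.3 and 67.1 CPM in C6, 144 and 149 CPM in C3) and the identity of the line cannot be told apart.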

How the results depend on the processing

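Over the 14 alternatives 400 single-gene values kept their direction and side of the threshold, 35 lost their call, 6 gained one and 7 changed sign without a call. With upper-quartile scaling the members called were 1 higher and 4 lower in the mean and 0 higher and 2 lower in C3 (edgeR; 1 higher at an unadjusted p under 0.05 in C3), and ELOVL5 in C3 turned to -0.03. With the replicate block 1 member was higher in the mean and 0 in C3 (1 unadjusted). Same-numbered libraries had deviations correlated by -0.05 to 0.06 across genes, so no strong shared deviation was seen. The labels do not say whether same-numbered libraries were processed together, and this correlation cannot settle it. With the positional offset 1 was higher in the mean and 0 in C3 (0 unadjusted), and the uncalled ELOVL5 turned to 0.07 in the mean, 0.07 in C6 and 0.01 in C6 against C3, and HACD2 to 0.01 in C3. DESeq2 called 1 higher in the mean, and 0 higher and 0 lower in C3 (1 and 1 unadjusted). With the knockdown libraries as 1 group 80 genes were called, with 0 members higher and 0 lower (0 and 1 unadjusted). The cause of these shifts was not tested.

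Leaving out 1 library gave 2444 to 4041 calls over all genes in the mean, 1946 to 3267 in C3, 4584 to 6006 in C6 and 5155 to 6423 in C6 against C3. The lowest in the mean and in C3 came without scramble replicate 2, and without C3 replicate 2 C3 had 1947. The members called were 1 to 2 higher and 1 to 3 lower in the mean, 0 to 1 higher and 0 to 1 lower in C3, 1 higher and 3 lower in C6, and 1 higher and 3 lower in C6 against C3. ELOVL5 in C3 ranged from -0.02 (without scramble replicate 1) to 0.04, and ELOVL6 in C3 from -0.26 to 0.03 (without C3 replicate 2). Where this left 1 library in a group, it was assumed to vary like the others.

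Without division by length elongase counts in C6 were 34.1% ELOVL1, 60.2% ELOVL5, 4.31% ELOVL6 and 1.34% ELOVL7. In C3 they were 18.7% ELOVL1, 71.1% ELOVL5, 7.41% ELOVL6 and 2.80% ELOVL7, and in scramble 20.2% ELOVL1, 68.1% ELOVL5, 7.70% ELOVL6 and 3.97% ELOVL7.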
